A study of Mus musculus with 4 samples.

Results

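CC chemokines and their receptors were examined in colon epithelial isolates of mice with stated deletions of the Polycomb genes Bmi1 and Mel18. All genes whose symbol in the array annotation begins with Ccl or Ccr followed by a digit were taken, each through its brightest probe set that carries 1 symbol. This gave 29 genes, 19 ligands and 10 receptors, of 19938 genes with a symbol of their own. The rule reads symbols and no measured value, but the family was picked for description with earlier results of these data known. The arrays compared 4 genotypes on the C57BL/6 background: Bmi1ΔIEC Mel18ΔIEC (called DKO), Bmi1ΔIEC (Bmi1_KO), Mel18ΔIEC (Mel18_KO) and WT. All mice, WT included, were 6 to 8 weeks old and sex-matched, received azoxymethane, a colon carcinogen (10 mg/kg), and, 5 days later, 3.5% dextran sulfate sodium, which injures the colon lining, in drinking water for 5 days. Colons were taken on day 12 of this colitis-associated cancer model, and the cells released by EDTA were used without a described sort. Bmi1 and Mel18 (gene symbol Pcgf2) encode paralogous RING finger proteins of the repressive Polycomb complex 1, which keeps genes silent. The labels place the deletions in intestinal epithelial cells. The sources used here do not give the driver of the deletion, the deleted exons or the number of mice behind each array.

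CC chemokines are small secreted proteins, named for a pair of adjacent cysteines, that draw leukocytes along a gradient by binding G protein-coupled receptors. Inflammatory members are made by myeloid cells, lymphocytes, stroma and epithelium on injury or infection, and bring monocytes, T cells and eosinophils into tissue. Others act in steady state: Ccl25 and Ccl28 are made by gut epithelium and place lymphocytes there, Ccl20 marks the epithelium over lymphoid follicles and is induced by inflammation, and Ccl19 and the Ccl21 proteins guide cells to lymphoid tissue. The receptors sit mainly on leukocytes.

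From the members that read higher on DKO than on each other array, 5 were picked: the ligands Ccl3, Ccl9 and Ccl20 and the receptors Ccr1 and Ccr2. Others of that kind with a promoter at hand, such as Ccl6, Ccl17 and Ccl19, were not picked. Promoters of the 5 are shown. They are RefSeq sequences of build GRCm38.p6, from 250 bases before the annotated start to 50 after it, 5′ to 3′ on the gene's strand. The windows are chr11:83649329-83649628 (minus strand) for Ccl3, chr11:83578587-83578886 (minus) for Ccl9, chr1:83116516-83116815 (plus) for Ccl20, chr9:123968643-123968942 (minus) for Ccr1 and chr9:124101933-124102232 (plus) for Ccr2. Capitals mark a match to a searched motif.
Ccl3: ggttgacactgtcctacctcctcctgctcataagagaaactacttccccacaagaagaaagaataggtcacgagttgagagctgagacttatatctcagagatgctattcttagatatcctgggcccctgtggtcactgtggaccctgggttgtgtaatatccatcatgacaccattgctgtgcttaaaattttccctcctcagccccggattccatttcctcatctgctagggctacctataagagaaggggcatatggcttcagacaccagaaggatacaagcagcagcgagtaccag
Ccl9: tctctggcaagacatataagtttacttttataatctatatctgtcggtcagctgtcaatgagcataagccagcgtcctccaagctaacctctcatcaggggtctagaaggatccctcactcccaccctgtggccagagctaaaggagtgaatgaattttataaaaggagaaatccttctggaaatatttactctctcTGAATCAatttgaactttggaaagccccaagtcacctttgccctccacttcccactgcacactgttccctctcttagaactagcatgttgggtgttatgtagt
Ccl20: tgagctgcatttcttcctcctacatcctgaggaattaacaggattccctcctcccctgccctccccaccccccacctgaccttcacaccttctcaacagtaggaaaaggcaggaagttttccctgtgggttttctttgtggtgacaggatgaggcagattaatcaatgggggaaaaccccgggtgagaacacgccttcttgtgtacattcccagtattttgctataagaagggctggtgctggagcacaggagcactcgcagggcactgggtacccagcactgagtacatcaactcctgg
Ccr1: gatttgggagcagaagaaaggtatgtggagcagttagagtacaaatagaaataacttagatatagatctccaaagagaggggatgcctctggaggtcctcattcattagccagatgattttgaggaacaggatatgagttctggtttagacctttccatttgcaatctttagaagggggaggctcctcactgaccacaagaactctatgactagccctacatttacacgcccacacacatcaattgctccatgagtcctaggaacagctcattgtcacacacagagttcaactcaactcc
Ccr2: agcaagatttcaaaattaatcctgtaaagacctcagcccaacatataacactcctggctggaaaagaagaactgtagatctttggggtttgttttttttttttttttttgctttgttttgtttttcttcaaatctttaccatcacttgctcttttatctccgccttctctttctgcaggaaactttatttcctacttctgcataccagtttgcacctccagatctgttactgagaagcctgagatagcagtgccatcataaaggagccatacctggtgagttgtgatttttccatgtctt

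The motifs searched on both strands were 2 forms of the kappa B motif, GGANTTTCC and GGANNTTCC, of which the second includes every match of the first, a STAT motif, TTCNNNGAA, and an AP-1 motif, TGANTCA. The table held promoters of 20 members. It held none for Ccl2, Ccl4, Ccl5, Ccl7 and Ccr7, among others. The share of all 32851 promoters of this length with a match was 1.25% for GGANTTTCC, 4.26% for GGANNTTCC, 8.30% for TTCNNNGAA and 7.81% for TGANTCA. Among the 20 members the AP-1 letters were found for 5, Ccl9, Ccl28, Ccr3, Ccr4 and Ccr1l1. The STAT letters were found for 3, Ccl17, Ccr6 and Ccr1l1. GGANNTTCC was found for 3, Ccl1, Ccl12 and Ccr3, and GGANTTTCC for 1, Ccr3. Of the 5 promoters printed, Ccl9's alone held a match. Its letters TGAATCA begin at position -53, counted from the annotated start. A match describes letters and is not a binding site, and the absence of a match says only that these letters are not in this window.

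The values are log2 intensities of 1 array per genotype, so no difference has a replicate check and none was tested. Across 12526 genes reading at least 6 on 1 or more arrays, DKO correlated with the other arrays at 0.878 to 0.906 (Pearson, across genes, which are not independent replicates), whereas the other pairs lay between 0.978 and 0.982. A bound for the spread of a difference of 2 arrays, from the contrasts among the 4, was 0.41 (log2) at the middle of these 12526 genes. Bmi1 read 7.64 in DKO cells, 7.43 in Bmi1_KO cells, 6.999 in Mel18_KO cells and 7.25 in WT cells. Pcgf2 read 6.81 in DKO cells, 6.72 in Bmi1_KO cells, 6.84 in Mel18_KO cells and 6.96 in WT cells. Neither was clearly low where its deletion is stated, and each was lowest on the array of the other single deletion. Since probes can lie outside the deleted exons, these values are no check of the labels, on which every reading of a loss below rests. All 9 epithelial markers read at least 6, and their summed intensity was 36458 in DKO cells, 36162 in Bmi1_KO cells, 36525 in Mel18_KO cells and 34474 in WT cells. Bright genes such as Krt8 and Cdh1 dominate this sum, while Cdx1 and Cdx2, intestinal transcription factors, differed between DKO and WT by -1.36 and -0.42. The WT array also carried seminal vesicle transcripts: 10 such genes summed to 176 on DKO, 386 on Bmi1_KO and 179 on Mel18_KO, and to 16152 on WT. For this reason DKO is set below against WT and, without the WT array, against the mean of the single deletions.

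Of the 29 members, 18 read at least 6 on 1 or more arrays, 14 ligands and 4 receptors. Counts below are over all 29 members without a filter, since a floor on the highest array would favour genes that differ. A member is counted where it was at least 2-fold apart, which is 1 on the log2 scale. On DKO, 8 members exceeded WT at least 2-fold (27.6% of the 29, against 4.76% of all genes), namely Ccl2, Ccl3, Ccl4, Ccl5, Ccl20, Ccr1, Ccr2 and Ccr7. Only Ccl7 was at least 2-fold lower (3.45%, against 5.18% of all genes). The median over members was 0.41, and over all genes 0.01. Against the mean of Bmi1_KO and Mel18_KO, the same 8 members were at least 2-fold higher on DKO (background 4.74%) and 0 lower (background 4.09%), with a median of 0.25 over members and -0.01 over all genes. These differences share the DKO array.

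**Figure D1:**
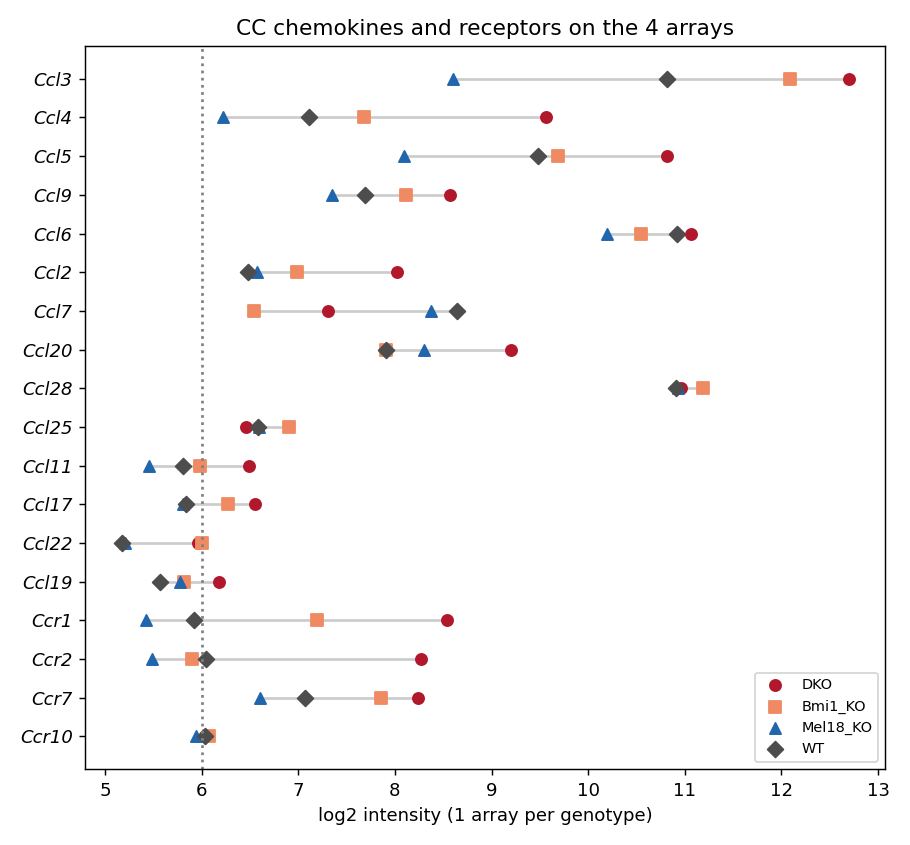
Log2 intensity (x axis) of the 18 members that read at least 6 on 1 or more of the 4 arrays, 1 row a gene and 1 symbol a genotype; the dotted line marks 6 and the grey line spans the 4 arrays. DKO is the rightmost point for Ccl3 (12.70), Ccl4 (9.57), Ccl5 (10.82), Ccr1 (8.54), Ccr2 (8.27) and Ccr7 (8.23), while Ccl7 is highest on WT (8.65). Positions of different genes are not comparable, since each probe set has its own brightness.

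The ligands of Ccr1 and related receptors on myeloid and T cells spanned a wide range. Ccl3, macrophage inflammatory protein 1 alpha, a product of activated myeloid cells, read 12.70 in DKO cells, 12.09 in Bmi1_KO cells, 8.60 in Mel18_KO cells and 10.81 in WT cells. It was thus 3.69-fold higher on DKO and 2.43-fold higher on Bmi1_KO than on WT, and 4.65-fold lower on Mel18_KO. Its span over the 4 arrays was 17.2-fold. Ccl4, macrophage inflammatory protein 1 beta, the close relative of Ccl3, read 9.57 in DKO cells, 7.68 in Bmi1_KO cells, 6.22 in Mel18_KO cells and 7.11 in WT cells. DKO stood 5.51-fold above WT and 10.2-fold above Mel18_KO for this gene. Ccl5, a T cell and monocyte attractant also made by T cells and NK cells, read 10.82 in DKO cells, 9.68 in Bmi1_KO cells, 8.10 in Mel18_KO cells and 9.49 in WT cells. It was 2.52-fold higher on DKO and 2.62-fold lower on Mel18_KO than on WT, while Bmi1_KO differed from WT by 0.20, less than the bound of 0.41.

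Ccl9 and Ccl6, rodent chemokines that act through Ccr1, were likewise highest on DKO and lowest on Mel18_KO, with smaller differences. Ccl9 read 8.57 in DKO cells, 8.11 in Bmi1_KO cells, 7.35 in Mel18_KO cells and 7.69 in WT cells, a difference of 0.88 between DKO and WT. Ccl6 read 11.06 in DKO cells, 10.54 in Bmi1_KO cells, 10.19 in Mel18_KO cells and 10.92 in WT cells, so that DKO exceeded WT by 0.14, under the error bound, and Mel18_KO differed from WT by -0.73. The order DKO, Bmi1_KO, WT, Mel18_KO from high to low was found for 9 of the 29 members (31.0%), against 7.99% of all genes: Ccl3, Ccl4, Ccl5, Ccl9, Ccl11, Ccl17, Ccr1, Ccr3 and Ccr7. Ccr3 read under 6 on all arrays, so its order is not reliable. DKO was the highest array for 16 members (background 34.4%), and Mel18_KO the lowest for 15 (background 22.8%). Both held for 11 members (background 12.9%). These counts include members under 6 on all arrays, whose order is likewise not reliable. They are Ccl12, Ccr3 and Ccr4 among the 16, Ccl24, Ccl26, Ccr3 and Ccr9 among the 15, and Ccr3 among the 11.

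Ligands of Ccr2, the receptor that brings inflammatory monocytes out of the bone marrow, did not move together. Ccl2, monocyte chemoattractant protein 1, read 8.02 in DKO cells, 6.98 in Bmi1_KO cells, 6.58 in Mel18_KO cells and 6.48 in WT cells. It was 2.90-fold higher on DKO than on WT, and the single deletions exceeded WT by 0.50 and 0.10. Ccl7, monocyte chemoattractant protein 3, went the other way: it read 7.31 in DKO cells, 6.54 in Bmi1_KO cells, 8.37 in Mel18_KO cells and 8.65 in WT cells. Compared with WT it was 4.29-fold lower on Bmi1_KO, 2.53-fold lower on DKO and 0.27 lower on the log2 scale on Mel18_KO. The arrays with a stated Bmi1 deletion were the 2 lowest, and Mel18_KO differed from WT by less than the error bound. The part of the seminal vesicle transcripts in the WT value was not tested. Against the mean of the single deletions Ccl7 differed on DKO by -0.15. Ccl8 and Ccl12, the other Ccr2 ligands on the array, read under 6 on all 4 arrays.

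Among the epithelial ligands Ccl20 differed, and Ccl25 and Ccl28 stayed within 2-fold. Ccl20, which attracts dendritic cells and lymphocytes bearing Ccr6, read 9.20 in DKO cells, 7.90 in Bmi1_KO cells, 8.30 in Mel18_KO cells and 7.91 in WT cells. DKO exceeded WT 2.44-fold and the mean of the single deletions 2.14-fold, and Bmi1_KO differed from WT by -0.003. Ccl28, the ligand of Ccr10 on plasma cells of the colon, read 10.96 in DKO cells, 11.18 in Bmi1_KO cells, 10.92 in Mel18_KO cells and 10.91 in WT cells, a span of 1.21-fold. Ccl25, the small bowel ligand of Ccr9, read 6.46 in DKO cells, 6.91 in Bmi1_KO cells, 6.60 in Mel18_KO cells and 6.58 in WT cells in its brighter probe set. Its 2 probe sets disagreed in sign: DKO minus WT was -0.12 in the brighter and 0.28 in the other. Of 9 small bowel markers, 5 were at least 2-fold above WT on DKO and 1, Fabp6, below it (-1.16). These compare with 4.76% and 5.18% of all genes. Fabp2 differed by 0.13, and Sis and Lct read under 6 on all arrays. The 9 had a summed intensity of 6333 in DKO cells, 699 in Bmi1_KO cells, 854 in Mel18_KO cells and 607 in WT cells. Their part in the ligands' values was not tested.

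The remaining ligands above the floor read close to it. Ccl11, eotaxin, a ligand of the eosinophil receptor Ccr3, read 6.49 in DKO cells, 5.99 in Bmi1_KO cells, 5.46 in Mel18_KO cells and 5.81 in WT cells. Ccl17, which attracts T cells bearing Ccr4, read 6.55 in DKO cells, 6.27 in Bmi1_KO cells, 5.81 in Mel18_KO cells and 5.84 in WT cells. Ccl22, another Ccr4 ligand made by dendritic cells and macrophages, read 5.96 in DKO cells, 6.00 in Bmi1_KO cells, 5.21 in Mel18_KO cells and 5.17 in WT cells. For Ccl17 and Ccl22 alike, both arrays with a stated Bmi1 deletion lay above both arrays without one, and Ccl22 was 1.73-fold and 1.78-fold above WT on DKO and Bmi1_KO. Ccl19, a ligand of Ccr7, read 6.18 in DKO cells, 5.82 in Bmi1_KO cells, 5.78 in Mel18_KO cells and 5.57 in WT cells. Its 5 probe sets gave 0.61 to 0.76 for DKO minus WT, and 2 of them held equal values, so they are not independent. Values this near background are rough.

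Of the receptors, Ccr1, Ccr2 and Ccr7 were high on DKO. Ccr1, carried by monocytes and neutrophils, read 8.54 in DKO cells, 7.19 in Bmi1_KO cells, 5.42 in Mel18_KO cells and 5.92 in WT cells. On the values as deposited DKO was 6.14-fold and Bmi1_KO 2.41-fold above WT, whose value lay under 6. With a pseudocount of 32 the log2 difference between DKO and WT was 2.13, against 2.62 without it. Ccr2, the receptor of inflammatory monocytes, read 8.27 in DKO cells, 5.90 in Bmi1_KO cells, 5.49 in Mel18_KO cells and 6.05 in WT cells. The other 3 arrays lay within 0.56 of each other, and DKO exceeded WT 4.66-fold. Ccr7, the receptor of migrating dendritic cells and naive T cells, read 8.23 in DKO cells, 7.85 in Bmi1_KO cells, 6.60 in Mel18_KO cells and 7.07 in WT cells. It was 2.24-fold higher on DKO than on WT and 2.38-fold higher on Bmi1_KO than on Mel18_KO. Ccr10, the receptor of plasma cells, read 6.04 in DKO cells, 6.08 in Bmi1_KO cells, 5.94 in Mel18_KO cells and 6.04 in WT cells, a span of 1.10-fold. Because WT, Bmi1_KO and Mel18_KO read near 6 or under it for Ccr2, and WT and Mel18_KO did for Ccr1, the folds of these genes are rough.

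The other 11 members, Ccl1, Ccl8, Ccl12, Ccl24, Ccl26, Ccr3, Ccr4, Ccr6, Ccr8, Ccr9 and Ccr1l1, read between 3.67 and 5.84 on all arrays. Their span over the 4 arrays was at most 0.50, for Ccr4. The error bound of 0.41 is for a difference of 2 arrays in genes reading at least 6, so these spans cannot be judged by it. At this signal over background no order of the arrays is read from any of the 11. A value under the floor does not show that a gene is silent. Among them are the receptors of Ccl20 (Ccr6), of Ccl25 (Ccr9) and of the eotaxins (Ccr3).

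Each deletion alone gave few differences of 2-fold or more, among the members and among all genes. On Bmi1_KO, 2 members, Ccl3 and Ccr1, exceeded WT at least 2-fold (6.9% of the 29, background 0.351%). Lower was 1, Ccl7 (3.45%, background 0.241%). The median was 0.25 over members and 0.01 over all genes. On Mel18_KO, 0 members exceeded WT at least 2-fold (background 0.0903%), and 2, Ccl3 and Ccl5, were lower (6.9% of the 29, background 0.527%). The median was -0.03 over members and 0.01 over all genes. The 3 comparisons against WT share the WT array.

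The single deletions set against each other involve neither DKO nor WT. Bmi1_KO exceeded Mel18_KO at least 2-fold for 5 members, Ccl3, Ccl4, Ccl5, Ccr1 and Ccr7 (background 0.973%), and was lower for 1, Ccl7 (background 0.145%). Ccl3, at 11.3-fold, ranked 6 of 19938 genes from the top, and Ccl7, 3.55-fold lower on Bmi1_KO, ranked 3 from the bottom. Ccr1 stood 3.41-fold, Ccl5 3.00-fold and Ccl4 2.76-fold higher on Bmi1_KO. The median was 0.29 over members and -0.01 over all genes.

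**Figure D2:**
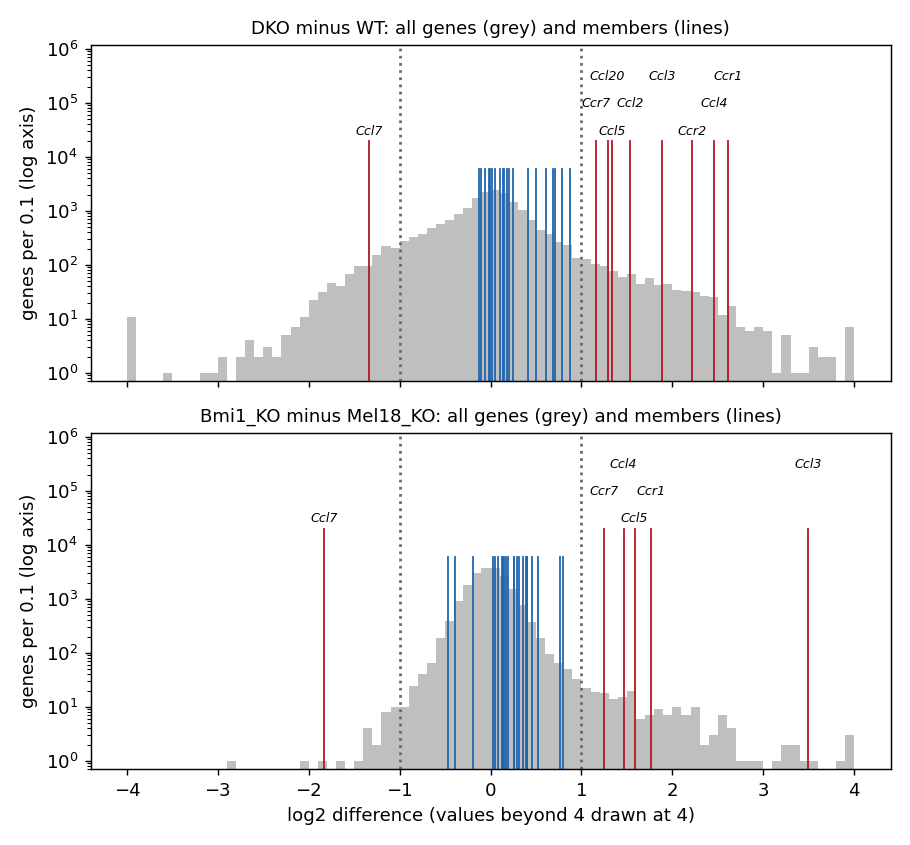
Log2 differences of all 19938 genes (grey histogram, log axis of genes per 0.1) and of the 29 members (vertical lines) for DKO minus WT and Bmi1_KO minus Mel18_KO; dotted lines mark 2-fold and red lines are members beyond it, whose height carries no value. In the upper panel 8 members lie beyond 2-fold on the right and Ccl7 on the left; in the lower panel 5 lie on the right, Ccl3 farthest at 3.49, and Ccl7 on the left at -1.83.

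Loss of each gene can be read from 2 pairs of arrays that share none. Loss of Mel18 with Bmi1 deleted is DKO minus Bmi1_KO, and with Bmi1 present it is Mel18_KO minus WT. For Ccl3 these were 0.61 and -2.22, for Ccl4 1.88 and -0.89, and for Ccl5 1.14 and -1.39. All 3 ligands thus read higher without Mel18 when Bmi1 was deleted and lower when it was present, past 1.5-fold on each side, which held for 1.09% of all genes. The difference was not tested, since each side has 1 pair of arrays. This reversal is not particular to these ligands. The leukocyte markers Cxcr2 and Lyz2 and the cytokines Il1a and Il1b showed it too. Mel18_KO differed from WT by -1.09, -0.99, -1.69 and -1.51 for these 4 genes. On DKO they read 10.37, 11.83, 11.64 and 12.28, against 8.88, 10.08, 10.30 and 11.16 on Bmi1_KO. Other markers, such as Csf3r and C1qa, did not show it past 1.5-fold on both sides. Over all members, 6 were at least 2-fold higher and 0 lower on DKO than on Bmi1_KO (4.32% and 3.81% of all genes), and 9 were higher and 1 lower on DKO than on Mel18_KO (5.04% and 4.61%). Loss of Bmi1 gave Ccl7 -1.07 with Mel18 deleted and -2.10 with Mel18 present, and Ccl3 4.10 and 1.28 in the same order, so the direction was the same in both pairs for each of these genes. No member went opposite ways past 1.5-fold with loss of Bmi1, against 0.466% of all genes. The departure from additivity, that is the effect of Mel18 loss with Bmi1 deleted minus that with Bmi1 present, was at least 2-fold above 0 for 7 members (background 5.38%), Ccl3, Ccl4, Ccl5, Ccl6, Ccl7, Ccr1 and Ccr2, and below 0 for 0 (background 4.12%). It was 2.93 for Ccr2 and 2.82 for Ccl3, and for Ccl7, lower on both Bmi1-deleted arrays, it was 1.04. Its median was 0.22 over members and -0.04 over all genes.

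**Figure D3:**
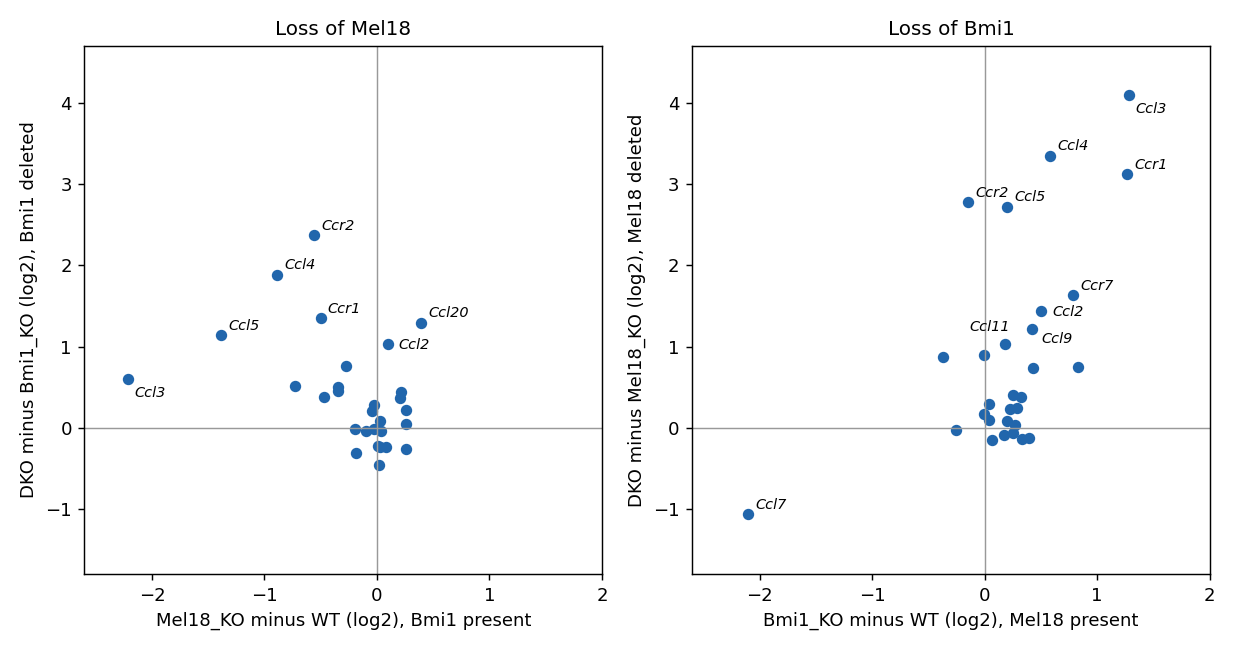
Each point is 1 of the 29 members; the x axis gives the log2 difference on loss of Mel18 (left) or Bmi1 (right) with the other gene present, and the y axis the difference with the other gene deleted, from a pair of arrays not used on the x axis. On the left Ccl3, Ccl4 and Ccl5 lie left of 0 and above 0; on the right Ccl7 lies low on both axes (-2.10 and -1.07) and Ccl3 high on both (1.28 and 4.10). Members at least 2-fold apart on either axis are named.

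Most members lie in clusters, which the choice by symbol did not use. In RefSeq gene order (GRCm38.p6), chromosome 11 holds 13 members. The block Ccl2, Ccl7, Ccl11, Ccl12, Ccl8 and Ccl1 has no other protein-coding gene between its members, and 25 genes farther on follows the block Ccl5, Ccl9, Ccl6, Ccl3 and Ccl4. In the second block all 5 genes read higher on DKO than on WT, with differences of 0.14 (Ccl6, under the error bound) to 2.46, and all 5 lower on Mel18_KO, with differences of -2.22 to -0.34 (Ccl9, under the bound). The first block was mixed: the adjacent genes Ccl2 and Ccl7 differed from WT by 1.54 and -1.34 on DKO and by 0.50 and -2.10 on Bmi1_KO. On chromosome 9, which holds 7 members, the neighbours Ccr1, Ccr1l1, Ccr3 and Ccr2 gave 2.62, 0.01, 0.25 and 2.22 for DKO minus WT, and the middle pair read under 6 throughout.

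**Figure D4:**
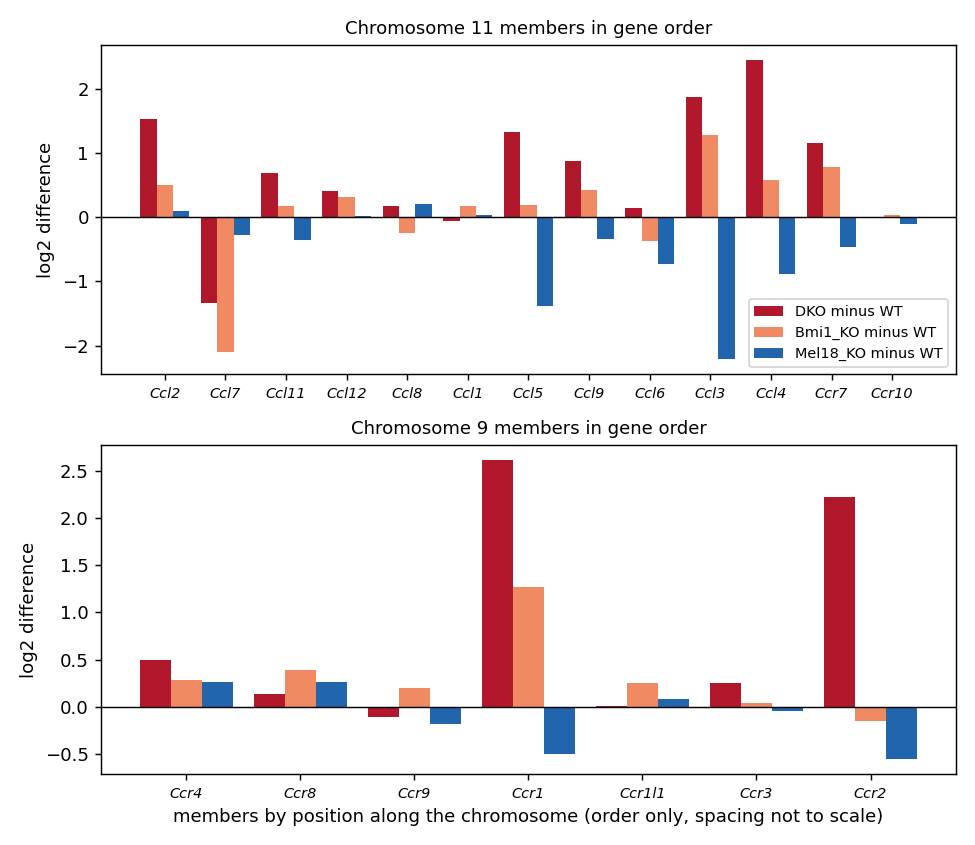
Log2 differences from WT (y axis) of members on chromosomes 11 (upper) and 9 (lower), in gene order with spacing not to scale, as bars for DKO, Bmi1_KO and Mel18_KO. Ccl7 is negative beside a positive Ccl2 on DKO (-1.34 and 1.54), and the block from Ccl5 to Ccl4 is positive on DKO and negative on Mel18_KO.

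Leukocyte markers differed between the arrays in the same direction as many members. The summed intensity of Ccl3, Ccl4, Ccl5, Ccl6 and Ccl9 was 11724 in DKO cells, 7164 in Bmi1_KO cells, 2067 in Mel18_KO cells and 4793 in WT cells. For 10 neutrophil markers it was 21903 in DKO cells, 11696 in Bmi1_KO cells, 1788 in Mel18_KO cells and 5044 in WT cells. At least 2-fold above WT were 9 of 10 on DKO (4.76% of all genes) and 5 of 10 on Bmi1_KO (0.351%). On Mel18_KO, 7 of 10 were at least 2-fold below WT (0.527%). For 12 mononuclear phagocyte markers the summed intensity was 14244 in DKO cells, 5187 in Bmi1_KO cells, 2887 in Mel18_KO cells and 4071 in WT cells. Of these, 11 of 12 were at least 2-fold above WT on DKO (4.76% of all genes). Ptprc, the pan-leukocyte gene CD45, gave an intensity of 993 in DKO cells, 246 in Bmi1_KO cells, 150 in Mel18_KO cells and 196 in WT cells. All 3 had the order of arrays seen for Ccl3, and their part in the chemokine differences was not tested. In such bulk RNA, more cells of a type and more RNA per cell cannot be told apart. That order was absent from 20 of the 29 members, many of them under 6 on all arrays, where no order is read. Brighter members without it were Ccl2, Ccl20 and Ccr2, which were high on DKO, and Ccl6 and Ccl7, among others. For Ccl2, Ccl6, Ccl20 and Ccr2 the differences that broke it lay under the error bound of 0.41. Some steps of the order also lay under this bound where the order held. Bmi1_KO minus WT was 0.20 for Ccl5 and 0.33 for Ptprc. Mel18_KO minus WT was -0.34 for Ccl9, -0.03 for Ccl17 and -0.39 for Ptprc. Single phagocyte markers lacked the order too: Bmi1_KO minus WT was -0.37 for Adgre1, -0.12 for C1qa, -0.21 for Ms4a7 and -0.38 for Mrc1. Others, such as Cd68 and Itgam, had it.

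Lists of T and NK cell, dendritic cell, eosinophil, endothelial and fibroblast markers differed less between DKO and WT than these 3. The summed intensity of 13 T and NK cell markers was 1076 in DKO cells, 848 in Bmi1_KO cells, 771 in Mel18_KO cells and 739 in WT cells. Cd3d, Cd8b1, Ncr1 and Klrd1 read under 6 on all arrays. On DKO, 1 of 13 was at least 2-fold above WT (4.76% of all genes). For 6 dendritic cell markers the sum was 584 in DKO cells, 357 in Bmi1_KO cells, 335 in Mel18_KO cells and 340 in WT cells. Flt3 and Clec9a read under 6 on all arrays, and Itgax alone was at least 2-fold above WT on DKO (1.60). For 4 eosinophil markers the sum was 415 in DKO cells, 283 in Bmi1_KO cells, 291 in Mel18_KO cells and 342 in WT cells. Epx and Prg2 read under 6 on all arrays. Some defining markers of these 3 cell types thus read under the floor on every array. Endothelial markers gave 1206 in DKO cells, 570 in Bmi1_KO cells, 374 in Mel18_KO cells and 444 in WT cells. Fibroblast markers gave 2730 in DKO cells, 1847 in Bmi1_KO cells, 1070 in Mel18_KO cells and 1244 in WT cells. Both sums had the order of Ccl3, but that of the fibroblasts rested on Dcn, at -0.99 for Mel18_KO minus WT. Col1a1, Col1a2, Col3a1 and Pdgfra differed by 0.04 to 0.19 in that comparison, Thy1 by -0.12, and Lum, under 6 on all arrays, by -0.40. The part of these cells was not tested.

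**Figure D5:**
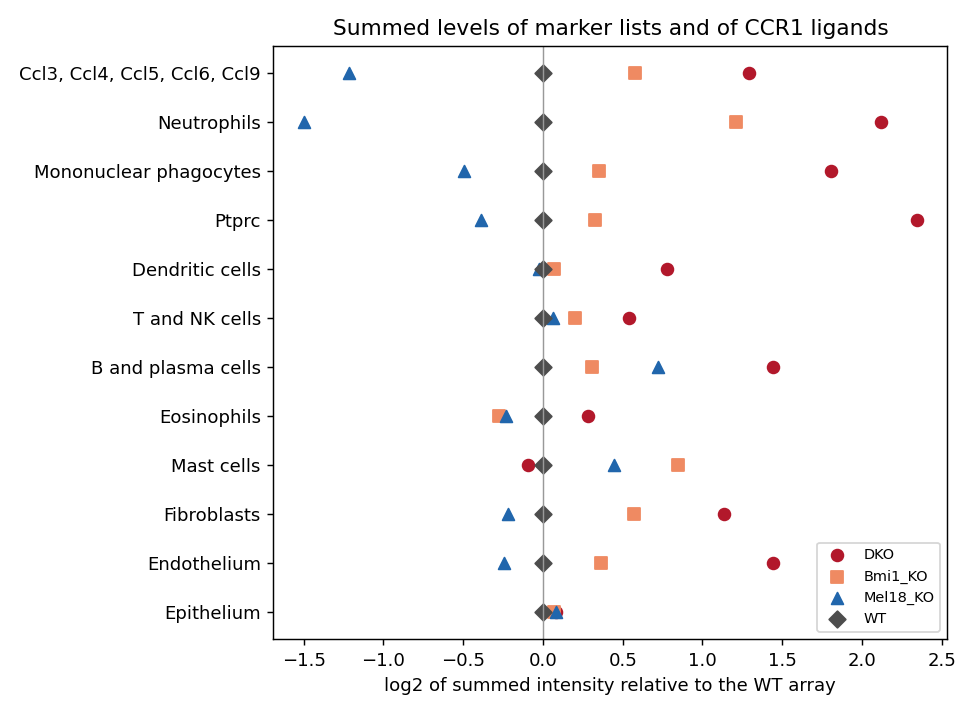
Log2 of the summed intensity of each marker list relative to the WT array (x axis), 1 row a list and 1 symbol a genotype, with the 5 ligands of Ccr1 and related receptors in the top row. The top 4 rows have the order DKO, Bmi1_KO, WT, Mel18_KO from right to left, and the epithelial row lies close to 0 on all arrays.

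Other genes of the pathway were taken from lists. Of 10 atypical receptors and related chemokine genes, 1 was at least 2-fold higher on DKO than on WT, with 0 at least 2-fold lower (4.76% and 5.18% of all genes), and the median was 0.44. This was Ccrl2, which presents chemerin and is found on activated myeloid cells; it read 10.01 in DKO cells, 8.29 in Bmi1_KO cells, 6.90 in Mel18_KO cells and 7.66 in WT cells, the order of Ccl3. Cx3cl1, the membrane-bound ligand fractalkine, read 10.23 in DKO cells, 9.12 in Bmi1_KO cells, 9.57 in Mel18_KO cells and 9.36 in WT cells. The atypical receptors Ackr1, Ackr2, Ackr3 and Ackr4, which take up chemokines without G protein signalling, and Xcr1, the Xcl1 receptor of a dendritic cell subset, read under 6 on all arrays.

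Of 19 measured genes of chemokine receptor signalling, 9 were at least 2-fold higher on DKO than on WT, with 0 at least 2-fold lower (4.76% and 5.18% of all genes), and the median was 0.96. Rgs1, which shortens G protein signals in lymphocytes, read 7.75 in DKO cells, 6.07 in Bmi1_KO cells, 4.98 in Mel18_KO cells and 5.43 in WT cells. Its Mel18_KO and WT values lay under 6 and are rough. Rac2, the blood cell GTPase of migration, read 10.42 in DKO cells, 9.45 in Bmi1_KO cells, 7.90 in Mel18_KO cells and 8.58 in WT cells. Rgs2 and the migration factor Dock2 were higher on DKO than on WT by 1.74 and 1.54, and the kinase subunits Pik3cg and Pik3r5 by 1.29 and 1.35. On Bmi1_KO and on Mel18_KO, 0 of the 19 were 2-fold or more from WT in either direction, with medians of 0.07 and -0.03. Few of all genes were: 0.351% higher and 0.241% lower on Bmi1_KO, and 0.0903% and 0.527% on Mel18_KO. Grk6, a kinase that desensitises receptors, went the other way, with 8.04 in DKO cells, 8.97 in Bmi1_KO cells, 9.09 in Mel18_KO cells and 8.93 in WT cells, and was chosen after its values were seen. Several of these are blood cell genes, and their part in the list's difference beside the leukocyte markers above was not tested.

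Of 17 measured inducers of chemokine genes, 10 were at least 2-fold higher on DKO than on WT, with 0 at least 2-fold lower (4.76% and 5.18% of all genes), and the median was 1.05. The cytokine Il1a read 11.64 in DKO cells, 10.30 in Bmi1_KO cells, 7.07 in Mel18_KO cells and 8.76 in WT cells. Its relative Il1b read 12.28 in DKO cells, 11.16 in Bmi1_KO cells, 8.91 in Mel18_KO cells and 10.42 in WT cells, again in the order of Ccl3, and both were at least 2-fold lower on Mel18_KO than on WT. Il6 read 7.35 in DKO cells, 5.02 in Bmi1_KO cells, 3.68 in Mel18_KO cells and 4.38 in WT cells. Only its DKO value lay above 6, and the others are rough. Tnf instead stood apart on DKO alone. Tnf read 10.53 in DKO cells, 8.71 in Bmi1_KO cells, 8.61 in Mel18_KO cells and 8.82 in WT cells. Ifng was also high on DKO and read 8.74 in DKO cells, 5.53 in Bmi1_KO cells, 5.66 in Mel18_KO cells and 5.66 in WT cells. Outside DKO it lay under 6, so no order of those arrays is read. Rel, a subunit of NF-kappa B, read 10.93 in DKO cells, 9.51 in Bmi1_KO cells, 9.95 in Mel18_KO cells and 9.93 in WT cells. Of the 17, Bmi1_KO had 1 at least 2-fold above WT and 0 below (0.351% and 0.241% of all genes), with a median of 0.20. Mel18_KO had 0 above and 2 below (0.0903% and 0.527%), with a median of 0.09.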

How the data were processed

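Total RNA (200 ng) from EDTA-released colon cells was hybridised to Affymetrix Mouse Gene 1.0 ST arrays, 1 per genotype. The deposited probe set intensities are on a linear scale. Per the submitters' processing notes the authors used RMA and Affymetrix Expression Console. RMA gives all arrays about the same distribution of values, which hides a shift common to most genes. The sources used here give no software version or annotation release. The deposited intensities ran from 4.70 to 13738 over 35556 probe sets, with medians of 73.0 (DKO), 72.9 (Bmi1_KO), 67.0 (Mel18_KO) and 69.2 (WT). They carry no count of molecules, so the number of arrays and the signal over background limit the precision.

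Here log2 of the deposited values was taken. Names came from the platform's annotation, where 21789 probe sets carried 1 symbol, 1621 several and 12146 none. The brightest set by mean was used per gene. All 29 members matched a RefSeq gene of GRCm38.p6 by identifier, with the same symbol. Arrays were compared by differences, with no test and no p-value, and counts past 2-fold were set beside the share of all 19938 genes. A log2 value of 6 was the floor for naming a member with its 4 values. The error bound is the smallest scaled median absolute deviation of the 3 orthogonal contrasts, times the square root of 2. It was taken over the 12526 genes reading at least 6 on 1 or more arrays. Members, roles, pathway and marker lists and motifs were chosen with earlier results of these data known, so no pattern is independent support. From the pathway lists, genes at least 2-fold apart between any 2 arrays were named, up to 6 each. The Ackr receptors and Xcr1 were named after their values were seen. The count procedure was tested on simulated data. Alternatives were floors of 6 on the highest array and on the mean, cyclic loess, median centring, a pseudocount of 32, thresholds of 1.5-fold and 3-fold, and averaging all probe sets of a gene. Python 3.11.15, numpy 2.4.6, pandas 2.3.3, R 4.3.3 and limma 3.58.1 (loess only) were used.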

Additional observations from a re-analysis of the deposited data

Results flagged for a closer look

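Ccl3, Ccl4 and Ccl5 were singled out because loss of Mel18 gave opposite directions with Bmi1 present and with Bmi1 deleted. The log2 differences with Bmi1 deleted and with Bmi1 present were 0.61 and -2.22 for Ccl3, 1.88 and -0.89 for Ccl4, and 1.14 and -1.39 for Ccl5. The difference between the directions was not tested, since each value comes from 1 pair of arrays. The same reversal was seen outside the family, for leukocyte markers such as Cxcr2 and Lyz2 and for Il1a and Il1b. It is thus not particular to these ligands.

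Probe sets that carry several symbols were not among the members. The 4 sets that name the near-identical Ccl21 genes, ligands of Ccr7, held 1 and the same value on each array, 8.68 in DKO cells, 7.47 in Bmi1_KO cells, 6.55 in Mel18_KO cells and 6.98 in WT cells. DKO was above WT by 1.71. These sets cannot tell the copies apart, and the 4 equal values count as 1 measurement.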

How the results depend on the processing

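No paired analysis was possible because each genotype has 1 array. At 1.5-fold, 13 members were higher for DKO against WT and 4 for Bmi1_KO against WT (9.99% and 1.53% of all genes). The departure from additivity had 12 higher (11% of all genes), and 4 were lower on Mel18_KO than on WT (1.66%). At 3-fold, 4 were higher (2.17%) and 0 lower (0.993%) for DKO against WT. Against WT, 0 were higher on Bmi1_KO (0.0652%) and 1 was lower on Mel18_KO (0.186%). Also at 3-fold, 5 were higher for DKO against the single deletions (2.14%) and 2 for Bmi1_KO against Mel18_KO (0.446%). With a pseudocount of 32, 1 member was higher on Bmi1_KO than on WT (0.201%). The other counts stayed within 1.5 times.

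The medians over members moved with the filter, which removes dim members. With a floor of 6 on the highest array they were 0.83 (DKO against WT), -0.31 (Mel18_KO against WT), 0.80 (DKO against the single deletions), 0.43 (Bmi1_KO against Mel18_KO) and 0.88 (additivity). With a mean of at least 6 they were 1.16, -0.34, 1.01, 0.41 and 0.94 in that order. With a pseudocount of 32 they were 0.14 (DKO against WT), 0.12 (Bmi1_KO against WT), 0.13 (DKO against the single deletions), 0.17 (Bmi1_KO against Mel18_KO) and 0.12 (additivity). Median centring gave 0.17 for Bmi1_KO against Mel18_KO, where it moved the median of all genes to -0.13, and 0.02 for Mel18_KO against WT, where the sign turned. Among all genes, cyclic loess gave 5.38% higher and 2.78% lower for DKO against the single deletions (4.74% and 4.09% without it) and 6.26% and 2.70% for additivity (5.38% and 4.12%), and median centring 0.226% and 0.281% for Bmi1_KO against WT (0.351% and 0.241%).

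For the 18 members with at least 6 on an array, 624 of 630 differences under other settings moved by less than the error bound. The 6 that moved more were of Ccr1 and Ccr2 with a pseudocount of 32, and 0 differences past 2-fold changed sign. Many of the 630 could not move. The floors on the highest array (108 differences) and on the mean (90) only remove genes and leave each difference as it was. Averaging probe sets (108) can change only Ccl19 and Ccl25, the members with several sets. Only cyclic loess, median centring and the pseudocount, with 108 differences each, could move every member. Members under 6 are limited by signal over background.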

Other observations

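The 3 probe sets that name Ccl27a and its copies, ligands of Ccr10, read 6.47 to 6.75 on DKO, 6.56 to 6.79 on Bmi1_KO, 6.48 to 6.83 on Mel18_KO and 6.48 to 6.83 on WT. Their differences from WT lay between -0.08 and 0.08 on all 3 deletion arrays, unlike the Ccl21 sets. The Ccl21 value had the order of arrays seen for its receptor Ccr7, DKO, Bmi1_KO, WT, Mel18_KO from high to low.

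The summed intensity of 6 mast cell markers was 894 in DKO cells, 1712 in Bmi1_KO cells, 1299 in Mel18_KO cells and 953 in WT cells. The differences of the sum came mostly from 2 genes, Mcpt1 and Mcpt2, which exceeded WT on Bmi1_KO by 1.07 and 1.18. Cma1 was instead highest on WT, with -1.26 for DKO minus WT.

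For 6 B and plasma cell markers the sum was 948 in DKO cells, 433 in Bmi1_KO cells, 577 in Mel18_KO cells and 349 in WT cells. Jchain, at 9.15 in DKO cells, 5.90 in Bmi1_KO cells, 7.08 in Mel18_KO cells and 6.24 in WT cells, made DKO the highest. Cd79a and Cd79b were highest on Mel18_KO, at 1.35 and 0.87 above WT. Ms4a1 was highest on DKO, at 1.01 above WT. The WT values of Cd79a and Ms4a1, 4.92 and 5.03, lay under 6, so their differences are rough. The plasma cell receptor Ccr10 and its ligand Ccl28 spanned 1.10-fold and 1.21-fold.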
